A study of Drosophila melanogaster with 11 samples.

Results

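The effect of *spen* RNAi was followed across both progenitor cell types of the adult *Drosophila* midgut, the intestinal stem cells (ISCs) and their enteroblast daughters (EBs), in a single comparison. The members are all 11 libraries of the series, 6 with *spen* RNAi (SPEN) and 5 wild type (WT). Each gene and each exon bin was fitted with genotype and cell type as additive terms, and the genotype term, SPEN over WT with the difference between ISCs and EBs held constant, is what is reported. The SPEN libraries were 3 of ISCs (SPEN-ISC) and 3 of EBs (SPEN-EB), and the WT libraries were 3 of ISCs (WT-ISC) and 2 of EBs (WT-EB, replicates 1 and 3). WT-EB replicate 2 was not analysed here; the study's methods say that it was dropped because it did not cluster with the other WT-EB libraries, so the spread among the 2 that remain can be too small.

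SPEN flies carried UAS-spen RNAi together with esg>GAL4, tubGAL80.ts, UAS-RFP and nre-GFP, and WT flies carried the same driver, repressor and reporters without the hairpin. All were 5-day-old adult females, moved for 2 days from 18 to 29°C to release GAL4 from its repressor. The esg driver is active in ISCs and EBs alike, so the hairpin was made in both sorted populations. ISCs were the diploid cells with RFP alone and EBs the diploid cells with RFP and the Notch reporter GFP, both taken from whole midguts by flow cytometry. According to the methods, the WT chromosome opposite the driver held no control hairpin, so an effect of the RNAi transgene and a difference in chromosome background cannot be told apart in these libraries. The labels call the replicates biological. ISCs and EBs were separated in the same sorting step, so an ISC and an EB library of one genotype may be fractions of a single sort. The labels do not say which libraries would belong together, and every test below takes the 11 libraries as independent.

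*spen* (split ends) encodes a very large nuclear protein with RNA recognition motifs at its N terminus and a SPOC domain at its C terminus, the founding member of a family that acts in transcriptional repression and in RNA processing. Its smaller relative in flies is *nito* (spenito), a component of the complex that methylates adenosines in mRNA. In the midgut, ISCs divide to renew the epithelium. Daughters that receive a strong Notch signal become EBs, which go on to form absorptive enterocytes, while other daughters give rise to hormone-secreting enteroendocrine cells.

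The libraries held 28206027 to 31991452 counts over exon bins. Gene values are given as scaled FPKM, which is the deposited FPKM divided by a factor per library (0.848 to 1.68 in SPEN and 0.492 to 1.54 in WT) so that most genes have the same level in every library. Between 5437 and 6836 genes reached 1 FPKM in SPEN libraries, against 4676 to 6838 in WT libraries, with the fewest in the 2 WT-EB libraries (4676 and 5021). The progenitor gene *esg* was detected in all 11 libraries, at 6.24 to 51.1 scaled FPKM in SPEN and 6.84 to 64.9 in WT. *Dl*, the Notch ligand of ISCs, had 0.615 to 4.42 scaled FPKM in SPEN-ISC and 0.24 to 0.763 in WT-ISC. In SPEN-EB it had 0.0101 to 0.133 and in WT-EB 0 to 0.0266. *chn*, another ISC marker, had 0.345 to 1.25 in SPEN-ISC, 0.628 to 1.13 in WT-ISC, 0.0348 to 0.121 in SPEN-EB and 0.0285 to 0.0457 in WT-EB. Both were below the filter on level. Neither overlapped between ISC and EB libraries, whereas *esg* did. The summed scaled FPKM of 5 EB markers was 2248 to 4152 in SPEN-ISC, 1027 to 1875 in WT-ISC, 1954 to 2608 in SPEN-EB and 1663 to 2186 in WT-EB, so these markers do not separate the ISC from the EB libraries. The 5 include *E(spl)malpha-BFM*, which was called higher in SPEN, so the SPEN sums also carry that rise. WT-ISC and WT-EB overlapped by themselves. In sorted populations of this kind, fewer cells of a type and less RNA per cell cannot be told apart.

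The targeted gene was examined first. *spen* lies on chromosome 2L of the BDGP5 annotation, and its bin E014 spans 12094 bases (2L, 187482 to 199575, plus strand). The hairpin was made against this exon, so reads in the bin can come from the hairpin itself. E014 held 88.4%, 73.7% and 80.9% of all *spen* counts in SPEN-ISC and 61.3%, 81.9% and 78.2% in SPEN-EB, against 4.44%, 31.3% and 23.4% in WT-ISC and 11.5% and 15.4% in WT-EB. No SPEN library overlapped a WT library. The share averaged 77.4 ± 9.23% in SPEN and 17.2 ± 10.4% in WT (SD, n = 6 and 5), and the mean of the differences within ISCs and within EBs was 60.8 percentage points (two-sided exact permutation test within cell type, p = 0.005, the smallest value that 200 arrangements allow). The arrangements also take the ISC and EB libraries as independent. Outside E014, *spen* had 2.89 to 18.1 CPM (counts scaled to library size) in SPEN and 1.69 to 7.76 in WT. The groups overlapped and the difference of 1.01 on the log2 scale was not past the threshold (exact permutation, p = 0.08), so a fall of the endogenous transcript was not detected. With TMM effective library sizes the difference was 0.49 (exact permutation, p = 0.35). In CPM without the TMM sizes, leaving out SPEN-ISC replicate 1 gave a difference of 1.22 (exact permutation, p = 0.04). No library was left out with the TMM sizes. E014 thus separates the libraries as their labels do. Outside E014 the estimate was higher in SPEN, and a reduction of *spen* mRNA was not detected.

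Over both cell types, 108 of 6107 genes tested (1.77%) passed an adjusted p of 0.05 in limma, 52 higher in SPEN (0.851%) and 56 lower in SPEN (0.917%). The absolute log2 fold changes of the called genes were 0.92 to 4.16, and 105 of the 108 changed at least 2-fold. The median log2 fold change over all tested genes was -0.03. All 108 had the same sign in ISCs and in EBs, as did 4336 of the 6107 tested genes (71%). A term pooled over both cell types favours genes that move alike in each, so this agreement is in part fixed by the selection. For 78 of the 108, no SPEN library overlapped a WT library in either cell type, against 178 of the 6107 tested genes (2.91%). The number of calls depended on single libraries. It was 617 without WT-ISC replicate 2, 44 without WT-ISC replicate 3, 36 without WT-EB replicate 1, 34 without WT-EB replicate 3, 42 without SPEN-EB replicate 2 and 37 without SPEN-EB replicate 3. The number of detected genes differed between SPEN-EB (6441, 5437 and 5957) and WT-EB (4676 and 5021). With this number as a covariate, 71 genes were called.

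**Figure D1:**
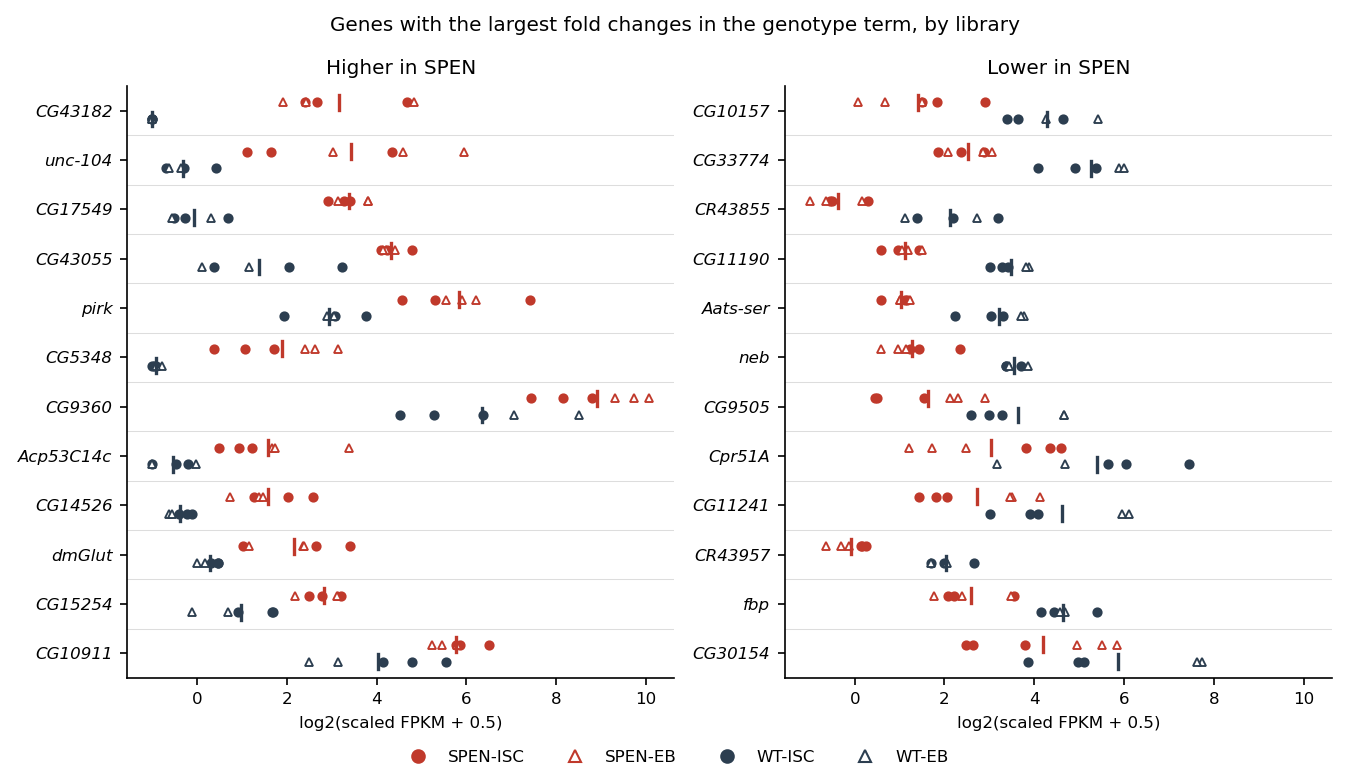
Scaled FPKM of the 12 genes with the largest fold changes in each direction among called genes without overlap in either cell type, as log2(scaled FPKM + 0.5) on the horizontal axis. Red points are the 6 SPEN libraries and dark points below them the 5 WT libraries, with filled circles for ISCs, open triangles for EBs and a vertical bar at the genotype mean; *CG43182* sits at the floor in all 5 WT libraries, and *Cpr51A* overlaps between SPEN-ISC and WT-EB but not within a cell type.

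The largest fold change belonged to *CG43182* (X, 247100 to 247350, plus strand), an uncharacterised gene that gave no count in any WT library. It had 4.77, 25.3 and 5.84 scaled FPKM in SPEN-ISC and 27.8, 4.89 and 3.26 in SPEN-EB, and was at 0 in all 5 WT libraries. With 447 counts over the SPEN libraries and 0 over the WT libraries, *CG43182* was at least 127-fold higher in SPEN relative to library size, taking 3 counts over the WT group as the floor. Its call (adjusted p = 0.000481, limma) was lost with EBs alone. The most stable rise was that of *CG17549* (2L, 19387050 to 19390070), also uncharacterised, with 10.1, 9.15 and 7.002 scaled FPKM in SPEN-ISC and 8.34, 13.6 and 13.5 in SPEN-EB, against 1.11, 0.199 and 0.337 in WT-ISC and 0.731 and 0.176 in WT-EB. Its log2 fold change was 3.45 ± 0.29 (SE; adjusted p = 1.69e-05), and it passed under all 26 alternatives tried. *CG43055* on 2L rose by 2.99 ± 0.42 on the log2 scale (adjusted p = 0.00217). It stood at 16.6 to 27.2 scaled FPKM in the 6 SPEN libraries and at 0.582 to 8.82 in the 5 WT libraries.

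A block of neighbouring genes on 2R rose together. *unc-104* (12639004 to 12660002, minus strand) encodes a kinesin-3 motor that carries synaptic vesicle precursors along axons. It had 2.65, 1.65 and 19.7 scaled FPKM in SPEN-ISC and 61.1, 7.60 and 23.4 in SPEN-EB, against 0.121, 0.832 and 0.322 in WT-ISC and 0.278 and 0.151 in WT-EB. The SPEN libraries were all above the WT libraries but spread widely among themselves, and the log2 fold change of 3.64 ± 0.68 had an adjusted p of 0.0226 in limma. *CG5348*, of the family of sodium/calcium exchangers, lies inside *unc-104* on the opposite strand (12654342 to 12656743). It had 0.807, 1.597 and 2.78 scaled FPKM in SPEN-ISC and 8.38, 4.82 and 5.63 in SPEN-EB, against 0 to 0.0302 in WT-ISC and 0.0837 and 0.0335 in WT-EB (log2 fold change 2.70 ± 0.33, adjusted p = 0.000374). *Acp53C14c*, directly downstream of *unc-104* (12638281 to 12638974, minus strand), rose as well, by 2.03 ± 0.38 (adjusted p = 0.013). Its scaled FPKM were 0.914 to 1.83 in SPEN-ISC and 2.68 to 10.02 in SPEN-EB, against 0 to 0.375 in WT-ISC and 0.489 and 0 in WT-EB. The libraries were stranded, but whether reads of the overlapping *CG5348* and *unc-104* were fully separated in counting was not tested, and *unc-104* and *Acp53C14c* share a strand. The *unc-104* call did not hold without WT-ISC replicate 1 (adjusted p = 0.0533), WT-EB replicate 1 (0.0896), WT-EB replicate 3 (0.0895) or SPEN-EB replicate 3 (0.0605) in limma, and that of *Acp53C14c* did not hold without WT-EB replicate 3 (0.064). *unc-104* also lost its call in ISCs only (adjusted p = 0.593) and in EBs only (0.0588) in limma. With the number of detected genes as a covariate, the limma adjusted p was 0.081 for *unc-104* and 0.0952 for *Acp53C14c*. Both also failed without the filter on level (0.0503 each, limma), and *Acp53C14c* in ISCs only.

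Signalling and transport genes were among those that rose. *pirk*, whose product dampens the Imd immune pathway, had 23.1, 171 and 38.9 scaled FPKM in SPEN-ISC and 59.2, 73.6 and 46.4 in SPEN-EB, against 7.88, 13.0 and 3.34 in WT-ISC and 7.75 and 6.97 in WT-EB. Its log2 fold change was 2.87 ± 0.44 (adjusted p = 0.00379, limma), and it lost its call with ISCs alone and with the number of detected genes as a covariate (adjusted p = 0.066). *Socs36E*, both a target and an inhibitor of JAK-STAT signalling, had 37.1, 24.6 and 36.8 scaled FPKM in SPEN-ISC and 42.6, 22.6 and 39.8 in SPEN-EB, against 17.6, 16.7 and 11.9 in WT-ISC and 10.3 and 9.91 in WT-EB (log2 fold change 1.34 ± 0.26, adjusted p = 0.0152). Every SPEN library was above every WT library. *dmGlut*, a glutamate transporter, had 5.80, 1.52 and 10.03 scaled FPKM in SPEN-ISC and 1.72, 4.62 and 4.73 in SPEN-EB, against 0.732 to 0.887 in WT-ISC and 0.506 and 0.637 in WT-EB (1.91 ± 0.37, adjusted p = 0.0172). Among the Notch targets of the E(spl) complex, *E(spl)malpha-BFM* rose, with 706, 1325 and 1395 scaled FPKM in SPEN-ISC and 1058, 679 and 582 in SPEN-EB, against 528, 439 and 213 in WT-ISC and 337 and 352 in WT-EB (1.37 ± 0.32, adjusted p = 0.0427). The groups did not overlap in either cell type. Without a single library, *Socs36E* passed 0.05 no longer for WT-ISC replicate 3 (adjusted p = 0.0511), WT-EB replicate 1 (0.0584), WT-EB replicate 3 (0.0866) and SPEN-EB replicate 3 (0.0523) in limma, and *dmGlut* for WT-ISC replicate 3 (0.0511), WT-EB replicate 1 (0.0753) and WT-EB replicate 3 (0.0604). *dmGlut* also lost its call in ISCs only, without the filter on level (adjusted p = 0.0643, limma) and with the detected-gene covariate (0.102, limma), and *Socs36E* in ISCs only. *E(spl)malpha-BFM* lost its call under 14 of 26 alternatives.

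Among the genes that rose were 6 on a list of enzymes that enterocytes secrete or use for digestion, 3 of them trypsins that share reads. *alphaTry*, a trypsin, had 1673, 3075 and 627 scaled FPKM in SPEN-ISC and 1369, 1985 and 1262 in SPEN-EB, against 1119, 756 and 282 in WT-ISC and 210.4 and 219.8 in WT-EB (log2 fold change 1.94 ± 0.46, adjusted p = 0.0452, limma). SPEN-ISC and WT-ISC overlapped, whereas SPEN-EB and WT-EB did not. Its neighbours *gammaTry*, *CG30031*, *CG30025* and *deltaTry* (2R, 7236566 to 7243633) rose by 1.95 to 2.16, but these copies are nearly identical and share reads, so they do not count as separate observations. *Jon25Bii* and *Jon65Aiv*, serine proteases of the Jonah family, rose by 2.68 and 1.86, and the maltase *Mal-A7* by 2.07. *CG15254*, an astacin-type metalloprotease, stood at 4.04 to 8.80 scaled FPKM in the 6 SPEN libraries and at 0.427 to 2.75 in the 5 WT libraries (1.90 ± 0.31, adjusted p = 0.00424). The summed scaled FPKM of 9 enterocyte markers, all detected in every group, was 1074 to 4553 in SPEN-ISC, 1605 to 2250 in WT-ISC, 2324 to 3225 in SPEN-EB and 493 to 520 in WT-EB. These 9 include the called genes *alphaTry* and *Jon25Bii*, so the sum is not a reading separate from their rise. The part of enterocyte RNA in these rises was not tested. The calls of *alphaTry*, *gammaTry*, *deltaTry*, *Jon25Bii*, *Jon65Aiv* and *Mal-A7* were lost under 11 to 13 of 26 alternatives each.

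Other genes that rose were less well known or acted elsewhere. *CG9360* (X), predicted to encode a short-chain dehydrogenase, was the most abundant of the 12 largest rises, with 172, 443 and 285 scaled FPKM in SPEN-ISC and 853, 1080.3 and 638 in SPEN-EB, against 82.2, 22.4 and 38.3 in WT-ISC and 364 and 133 in WT-EB (2.38 ± 0.40, adjusted p = 0.00551). *CG14526* on 3R, a member of the neprilysin-like peptidase family, stood at 1.16 to 5.49 scaled FPKM in SPEN and 0.151 to 0.423 in WT. *CG10911* on 2R had 37.3 to 90.3 scaled FPKM in SPEN and 5.16 to 46.5 in WT, without overlap in either cell type (1.86 ± 0.34, adjusted p = 0.0109), and its call failed without WT-EB replicate 1 (adjusted p = 0.0584) or WT-EB replicate 3 (0.0604) in limma. *Damm*, a caspase, rose by 1.55, and *sug*, a zinc finger transcription factor of the Gli/Glis kind, by 1.02.

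Among the genes that fell, *CG11190* (X, 8298568 to 8301296) had the smallest adjusted p (5.7e-05) and kept its call under all 26 alternatives. It had 2.21, 1.44 and 1.00 scaled FPKM in SPEN-ISC and 1.58, 1.78 and 2.33 in SPEN-EB, against 10.1, 7.54 and 9.23 in WT-ISC and 14.3 and 13.7 in WT-EB, which gives -2.40 ± 0.23 on the log2 scale. *CG33774* (2R, 5287258 to 5287809, minus strand) was the only other of the 12 largest falls that passed under all 26 alternatives, with 4.63, 6.90 and 3.14 scaled FPKM in SPEN-ISC and 3.70, 7.87 and 6.75 in SPEN-EB, against 40.9, 16.5 and 29.6 in WT-ISC and 59.0 and 63.5 in WT-EB (-2.80 ± 0.30, adjusted p = 0.000236). It also lost an exon, as described with the exon bins. *CG10157* on 3R showed the largest fall, of -2.83 ± 0.47 (adjusted p = 0.00636, limma). It had 2.32, 7.01 and 3.04 scaled FPKM in SPEN-ISC and 0.546, 2.32 and 1.10 in SPEN-EB, against 24.6, 9.96 and 12.01 in WT-ISC and 42.5 and 18.7 in WT-EB.

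*neb* (2L, 20075757 to 20089698) encodes a kinesin motor of dividing cells. It had 4.58, 1.86 and 2.19 scaled FPKM in SPEN-ISC and 1.00, 1.70 and 1.44 in SPEN-EB, against 9.83, 9.82 and 12.5 in WT-ISC and 13.95 and 10.3 in WT-EB (-2.23 ± 0.27, adjusted p = 0.000374, limma). *Aats-ser*, a seryl-tRNA synthetase, had 1.74, 1.67 and 1.01 scaled FPKM in SPEN-ISC and 1.53, 1.85 and 1.51 in SPEN-EB, against 9.37, 4.22 and 7.73 in WT-ISC and 13.2 and 12.5 in WT-EB (-2.24 ± 0.26, adjusted p = 0.000374). It was the only one of 21 tested aminoacyl-tRNA synthetase genes that was called, and the median of these 21 was 0.03. *Cpr51A*, a chitin-binding cuticle protein, had 19.9, 23.7 and 13.6 scaled FPKM in SPEN-ISC and 5.05, 2.81 and 1.82 in SPEN-EB, against 175, 49.5 and 65.4 in WT-ISC and 25.2 and 8.55 in WT-EB (-2.13 ± 0.37, adjusted p = 0.00636). It was the only call among 10 tested genes of chitin binding and metabolism, of which 6 lay above 0 (median 0.44). The fall of *Cpr51A* was nearly equal in the 2 cell types, -2.13 in ISCs and -2.12 in EBs, although the gene was higher in ISCs. With the number of detected genes as a covariate the adjusted p of *Cpr51A* was 0.075.

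Enzymes of intermediary metabolism appeared in the genes that fell more than once. *fbp*, fructose-1,6-bisphosphatase of gluconeogenesis, had 3.74, 11.2 and 4.14 scaled FPKM in SPEN-ISC and 4.72, 10.7 and 2.89 in SPEN-EB, against 41.3, 17.1 and 21.4 in WT-ISC and 25.1 and 23.2 in WT-EB (-2.06 ± 0.35, adjusted p = 0.00635). *su(r)*, dihydropyrimidine dehydrogenase of pyrimidine breakdown, had 0.481 to 1.45 scaled FPKM in SPEN and 2.92 to 5.91 in WT (-1.81 ± 0.26, adjusted p = 0.00205). *CG6287*, phosphoglycerate dehydrogenase of serine synthesis, fell by 1.59 on the log2 scale, *Prat*, the first enzyme of purine synthesis, fell by 1.38, and *CG6904*, glycogen synthase, fell by 1.04. The cytochrome P450 genes *Cyp6a13* and *Cyp311a1* fell by 1.34 and 1.22, and the carboxylesterase *alpha-Est1* fell by 1.52. *Cbl*, a ubiquitin ligase that turns down receptor tyrosine kinases, had 24.5, 10.5 and 29.7 scaled FPKM in SPEN-ISC and 18.0, 26.8 and 24.5 in SPEN-EB, against 53.3, 25.9 and 32.1 in WT-ISC and 124 and 90.5 in WT-EB. The ISC groups overlapped, and its log2 fold change of -1.43 ± 0.35 had an adjusted p of 0.0464 (limma). *Timp*, an inhibitor of matrix metalloproteases, had 19.0 to 33.0 scaled FPKM in SPEN and 43.8 to 70.4 in WT, without overlap. These metabolic and signalling genes were picked from the called genes after their values were seen.

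The remaining large falls were in genes of unknown or loosely known function. *CR43855* and *CR43957* are noncoding RNA genes on 2L and on chromosome 4. *CR43855* had 0 to 0.724 scaled FPKM in SPEN and 1.69 to 8.64 in WT (-2.47 ± 0.37), and *CR43957* had 0.146 to 0.684 in SPEN and 2.76 to 5.85 in WT (-2.07 ± 0.24). *CG9505*, a further gene of the neprilysin-like family, stood at 0.864 to 2.40 in SPEN-ISC and 3.85 to 6.95 in SPEN-EB, against 7.45, 5.544 and 9.28 in WT-ISC and 24.9 in both WT-EB libraries (-2.17 ± 0.26). The groups did not overlap in ISCs or in EBs for any of these 3. *CG11241*, predicted to encode an aminotransferase, fell by 2.10 on the log2 scale, with 2.19 to 17.02 in SPEN and 7.58 to 68.6 in WT, and *CG30154* fell by 1.93, with 5.06 to 57.1 in SPEN and 13.998 to 213 in WT. For both, the EB libraries of each genotype were higher than the ISC libraries, which is why the genotype ranges overlap although no SPEN library overlapped a WT library of its own cell type.

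**Figure D2:**
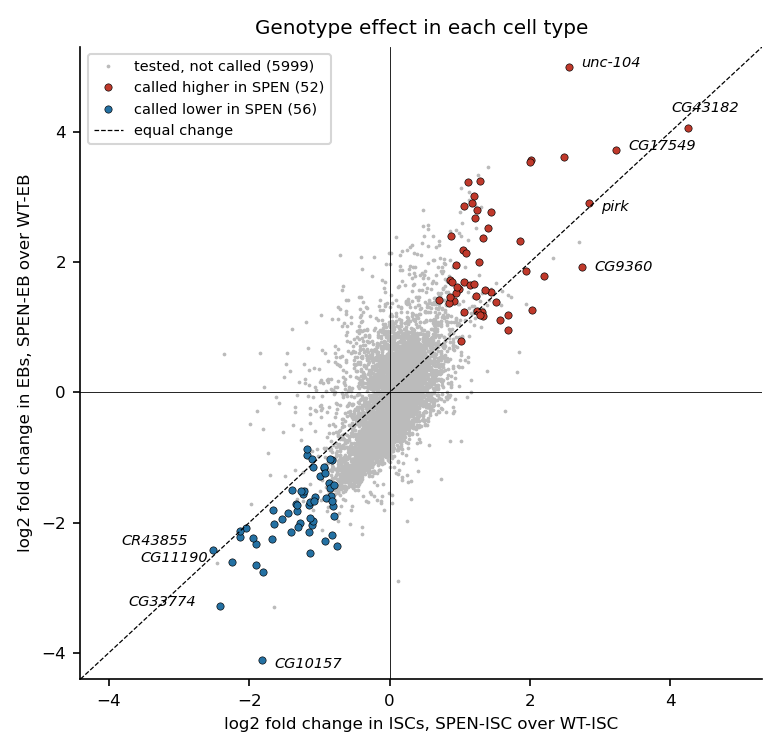
Log2 fold change of each of the 6107 tested genes in ISCs (horizontal axis) and in EBs (vertical axis), with called genes in red (52 higher in SPEN) and blue (56 lower in SPEN) and the dashed line at equal change. The called genes fill the upper right and lower left quadrants, which a term pooled over both cell types favours, and 89 of 108 have a larger absolute fold change in EBs.

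The same fold changes were then set side by side for the 2 cell types, whose libraries are all distinct. Over the 6107 genes, the log2 fold changes in ISCs and EBs had a Pearson correlation of 0.641 across genes, given as a description, and 4336 genes (71%) had the same sign. The median absolute log2 fold change of the called genes was 1.22 in ISCs and 1.79 in EBs, and 89 of 108 changed more in EBs. Over all tested genes the medians were 0.257 in ISCs and 0.51 in EBs. The absolute log2 fold change in EBs exceeded that in ISCs for *unc-104* (5.00 and 2.55), *CG10157* (-4.10 and -1.82) and *CG5348* (3.57 and 2.01), whereas *CG9360* changed more in ISCs (1.93 in EBs and 2.74 in ISCs). With the same genes and each cell type fitted alone, limma called 4 genes in ISCs (0.0655% of those tested) and 533 in EBs (8.73%). Of the 108 pooled calls, 4 were also called in ISCs alone, 95 in EBs alone and 12 in neither, and 438 of the EB calls were not called in the pooled comparison. None of this shows that the genotype effect differs between the cell types. The interaction of genotype and cell type was called for 0 of 6107 genes (0%) in limma, with 94 genes at an unadjusted p under 0.05 and a smallest adjusted p of 0.948, and 11 of the 108 called genes were among those 94. The 94 are a smaller share of the 6107 genes than the 0.05 that is expected without any interaction. With such p-values and 2 WT-EB libraries, the absence of calls does not show that the effects are equal either.

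**Figure D3:**
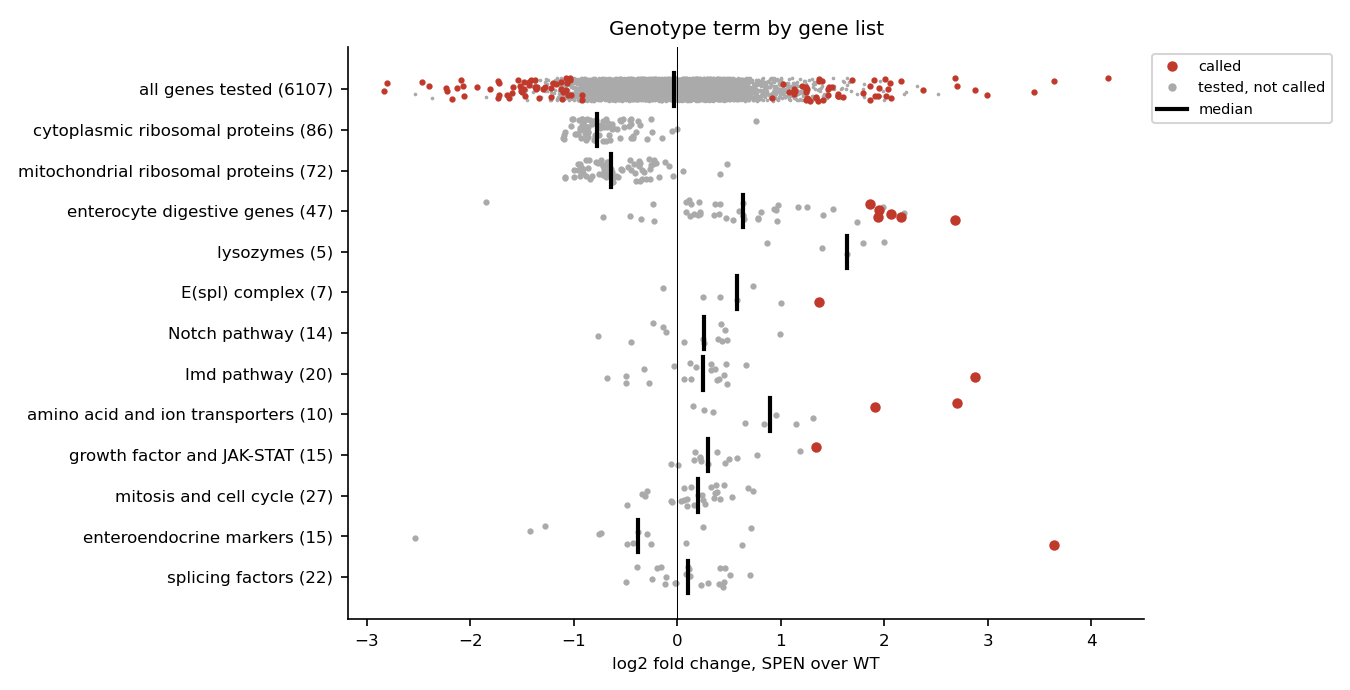
Log2 fold change, SPEN over WT, of the tested members of 12 gene lists and of all tested genes, with called genes in red, other genes in grey and a black bar at the median of each list. The number of tested genes stands in parentheses; nearly all ribosomal protein genes lie left of 0 without any call, and the enterocyte digestive genes lie mostly right of 0 with 6 calls.

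Gene lists were read by their counts and medians beside the median of -0.03 and the 2874 genes above 0 and 3233 below 0 among all 6107. Of 86 tested cytoplasmic ribosomal protein genes, 85 lay below 0 with a median of -0.78, yet 0 were called in limma at an adjusted p under 0.05, and 50 were lower at an unadjusted p under 0.05, as were 710 of all 6107 tested genes (11.6%). Their summed scaled FPKM was 371700 to 819000 in SPEN-ISC, 459600 to 1201000 in WT-ISC, 603100 to 982000 in SPEN-EB and 1483000 to 1899000 in WT-EB, so the groups overlapped in ISCs and not in EBs. The 72 mitochondrial ribosomal protein genes behaved alike, with 69 below 0, a median of -0.64, 0 calls in limma and 29 lower at an unadjusted p under 0.05. Without scaling, the median of the cytoplasmic list was -0.22 and that of all genes 0.45; scaling shifts all genes nearly alike, so this does not bear on the gap between them. With the number of detected genes as a covariate the list median was -0.18, against -0.01 for all genes. Without WT-ISC replicate 2, 41 of the 86 cytoplasmic genes were called lower, as were 454 of all 6141 genes then tested (7.39%).

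Of 47 tested enterocyte digestive genes, 6 (12.8%) were called higher, against 0.851% of all tested genes, with *alphaTry*, *gammaTry* and *deltaTry* among the 6. In that list 0 were called lower in limma (1 at an unadjusted p under 0.05), 41 lay above 0, and the median was 0.63. The 5 tested lysozyme genes, which degrade bacterial cell walls and share sequence among themselves, lay between 0.87 and 2.00 with a median of 1.64, and 0 were called (adjusted p of at least 0.105 in limma). For the E(spl) complex, 1 of 7 was called higher and the median was 0.58. *E(spl)mgamma-HLH* had 1.00 (adjusted p = 0.0607, limma) and *E(spl)m8-HLH* had -0.14. None of 14 core Notch pathway genes was called in limma. Of 20 Imd pathway genes, *pirk* alone was called, and *Rel*, the transcription factor of the pathway, had 0.67 (adjusted p = 0.536). *Socs36E* was the only call among 15 growth factor and JAK-STAT genes, of which 14 lay above 0, and *upd3*, a ligand of that pathway, had 1.19 (adjusted p = 0.137). Among 10 tested amino acid and ion transporters, *CG5348* and *dmGlut* were called and all 10 lay above 0. The study named 5 of these 10, both called genes included, on these samples, so they are not independent evidence of a direction. Of 35 tested genes that the study names, likewise chosen on these samples, 4 were called higher and 7 lower, with a median of -0.06.

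For other lists the calls were few. *unc-104* was the only call among 15 enteroendocrine genes. Of the 15, 5 lay above 0 and 10 below, and the median was -0.38. The values without a call ran between -2.53 for *npf* (adjusted p = 0.137) and 0.71 for *CCHa2*, both genes for peptide hormones. The summed scaled FPKM of 8 enteroendocrine markers was 34.1 to 349 in SPEN-ISC, 103 to 474 in WT-ISC, 3.51 to 6.28 in SPEN-EB and 3.82 to 5.202 in WT-EB, so enteroendocrine RNA was far higher in ISC than in EB libraries and overlapped between genotypes in both. *crok*, a Ly6 protein of septate junctions, was the only call among 11 septate junction genes (-1.17, adjusted p = 0.0375), and its call was lost under 14 of 26 alternatives. None of 27 mitosis and cell cycle genes, 22 splicing factors, 19 heat shock genes and 9 genes of the Spen family and the adenosine methylation machinery was called in limma. *nito*, the relative of *spen*, had 0.502 to 2.15 scaled FPKM in SPEN and 1.16 to 4.79 in WT (-0.71, adjusted p = 0.245). Visceral muscle markers summed to 0.239 to 7.21 scaled FPKM in SPEN and 0.656 to 7.75 in WT, and those of trachea to at most 1.61 in SPEN and 1.21 in WT. For haemocytes a list of 4 markers summed to at most 0.613 in SPEN and 0.224 in WT, and a list of 9 to 10.3 to 40.6 in SPEN and 8.95 to 22.9 in WT. Fat body lists of 4 and 10 genes reached at most 2.18 and 3.94 in SPEN and 1.21 and 2.73 in WT. For Malpighian tubules, a list of 6 that includes the widely expressed *Vha55* summed to 7.69 to 29.4 in SPEN and 6.64 to 17.8 in WT, and a list of 7 to 0.428 to 1.06 in SPEN and 0.154 to 0.806 in WT.

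Exon usage was measured as the ratio of the counts in a bin to the counts in all other bins of its gene. Of 26763 bins tested in 6267 genes, 78 (0.291%) in 53 genes were called in limma. Of these, 41 (0.153%) took a larger share of their gene in SPEN and 37 (0.138%) a smaller one. For all 78, no SPEN library overlapped a WT library in either cell type, against 609 of the tested bins (2.28%). The called bins included 19 first bins (24.4%, against 16.7% of tested bins), 23 last bins (29.5%, against 20.4%) and 11 bins shorter than 50 bases (14.1%, against 4.48%). Of the 78 called bins, 14 lay in genes of 2 bins, as did 1782 of the 26763 tested. In such genes each bin is first or last and mirrors the other, so first and last bins are counted in pairs. In 31 genes a single bin was called, in 19 genes 2 bins and in 3 genes 3 bins, and bins of a gene are not independent, since one that gains share lowers the others. Without WT-ISC replicate 3 the test called 42 bins, without SPEN-ISC replicate 3 47, without WT-EB replicate 1 36, without WT-EB replicate 3 37 and without SPEN-EB replicate 2 51. The interaction was called for 0 bins in limma, with 640 at an unadjusted p under 0.05. This is a smaller share of the 26763 bins than the 0.05 expected without any interaction, so the absence of calls says little.

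**Figure D4:**
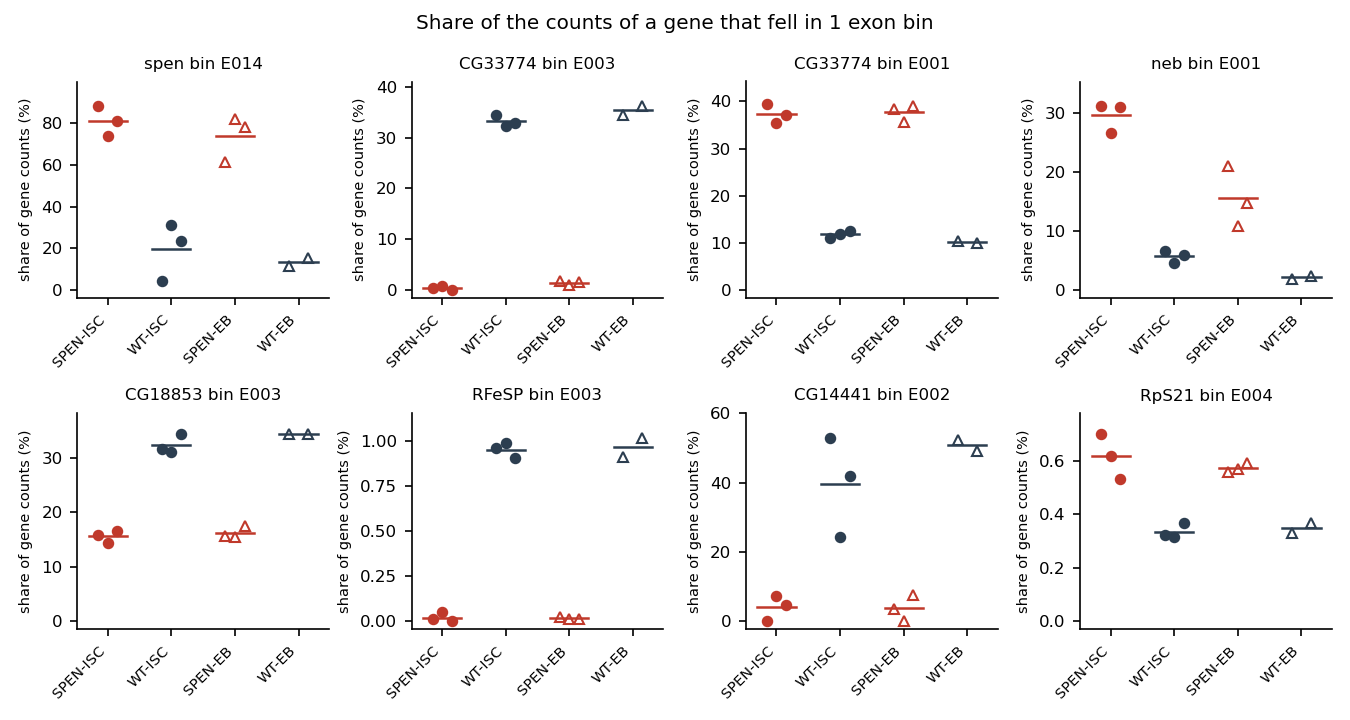
Share of the counts of a gene, in percent, that fell in one exon bin, for 8 called bins, with the groups SPEN-ISC, WT-ISC, SPEN-EB and WT-EB from left to right. Points are libraries and bars group means; *CG33774* E003 lies between 0 and 1.72% in SPEN and between 32.3 and 36.2% in WT, and no SPEN library overlaps a WT library in any panel.

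*CG33774* had 3 bins, and all 3 were called. Its first bin, E003 (2R, 5287762 to 5287809, 48 bases on the minus strand), took 0.387%, 0.714% and 0% of the gene's counts in SPEN-ISC and 1.72%, 0.971% and 1.55% in SPEN-EB, against 34.4%, 32.3% and 32.8% in WT-ISC and 34.5% and 36.2% in WT-EB. This is 0 to 6 counts in SPEN libraries against 311 to 543 in WT libraries. The last bin, E001 (116 bases), took 35.4% to 39.5% in SPEN and 9.86% to 12.6% in WT, with a log2 ratio difference of 2.27 ± 0.10 (adjusted p = 3.02e-08, the smallest of all bins, limma). In CPM, however, E001 was at 4.13 ± 1.35 in SPEN and 4.34 ± 0.60 in WT (SD, n = 6 and 5), while E002 was at 6.71 ± 1.83 in SPEN and 21.4 ± 3.08 in WT, and E003 at 0.094 ± 0.066 in SPEN and 13.3 ± 2.58 in WT. In CPM, the loss of *CG33774* signal was therefore in its first and middle bins, with the last bin at a like level in both genotypes. CPM do not carry the library factors of the gene values, and the level of the last bin with those factors was not examined. The change of E003 held under all 22 alternatives (adjusted p at most 0.00775), whereas that of E002 was lost under 13. That of E001 was lost only with edgeR's diffSpliceDGE (adjusted p = 0.0865).

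*neb* had 2 bins, so its shares mirror each other. The first, E001 (2L, 20075757 to 20077296, plus strand), took 31.2%, 26.5% and 31.0% in SPEN-ISC and 20.9%, 10.8% and 14.8% in SPEN-EB, against 6.55%, 4.65% and 5.84% in WT-ISC and 1.91% and 2.42% in WT-EB (log2 ratio difference 2.90 ± 0.19, adjusted p = 1.35e-06, limma). In CPM, E001 was at 0.431 to 5.68 in SPEN and 0.344 to 2.24 in WT and overlapped, while the last bin, E002, was at 2.93 to 12.5 in SPEN and 16.7 to 40.2 in WT and did not overlap. In CPM, the fall of *neb* thus lay in its last bin, of 2052 bases. Bin levels with the library factors of the gene values were not examined. The call of *neb* E002 was lost with diffSpliceDGE, whereas that of E001 held under all 22 alternatives. Along with *CG33774* and *neb*, *CG2909* and *CG6073* were called both as genes and for bins, 4 of the 84 called genes that had tested bins. *CG2909* rose as a gene (log2 fold change 1.14) and its last bin E004 took 26.9% to 38.8% of its counts in SPEN and 49.7% to 76.3% in WT. This end overlaps by position with *Gip* on the other strand, a hydroxypyruvate isomerase homologue, which fell by 1.49. The call of *CG2909* E004 was lost with diffSpliceDGE and in ISCs only.

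Most called bins lay in genes whose level was not called. *CG18853* E003 on 2R (390 bases) took 15.8%, 14.4% and 16.6% in SPEN-ISC and 15.7%, 15.4% and 17.5% in SPEN-EB, against 31.6%, 31.1% and 34.3% in WT-ISC and 34.3% in both WT-EB libraries (log2 ratio difference -1.40 ± 0.08, adjusted p = 5.84e-07). This bin had an adjusted p of 0.211 with limma's diffSplice, and its call was also lost with edgeR's diffSpliceDGE. The gene itself had a log2 fold change of 0.23. The upstream neighbour of *CG18853*, the DNA repair photolyase *phr*, was called higher, by 1.24. *CG9894* E002, a bin of 3 bases on 2L, took 1.35% to 2.61% in SPEN and 5.35% to 6.55% in WT and held under all 22 alternatives. *CG14441* E002 on X took 0% to 7.69% in SPEN and 24.3% to 52.9% in WT, from 0 to 8 counts in SPEN libraries and 44 to 80 in WT libraries.

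*RFeSP*, the Rieske iron-sulfur protein of respiratory complex III, lost bin E003 (2L, 51 bases), which took 0% to 0.0507% of its counts in SPEN and 0.907% to 1.02% in WT. That bin held 0 to 3 counts in SPEN libraries and 61 to 86 in WT libraries (log2 ratio difference -4.99 ± 0.41, adjusted p = 2.3e-05, limma), and its neighbour E004, of 4 bases, showed the same pattern with 0 to 3 and 41 to 56 counts. E003 and E004 adjoin and can hold the same reads, so they are not separate observations. *RpS21* E004 (2L, 62 bases), in a gene for a ribosomal protein of the small subunit, took 0.702%, 0.62% and 0.531% in SPEN-ISC and 0.558%, 0.571% and 0.594% in SPEN-EB, against 0.322%, 0.315% and 0.368% in WT-ISC and 0.331% and 0.366% in WT-EB (0.81 ± 0.07, adjusted p = 6.21e-05). With diffSplice and with diffSpliceDGE this bin had an adjusted p of 1. *RpL19* E004 took 0.0787% in SPEN and 0.0559% in WT on average (adjusted p = 0.0314). *CG15093* E004 on 2R, predicted to belong to a 3-hydroxyisobutyrate dehydrogenase gene, took 6.41% to 9.19% in SPEN and 15.8% to 18.6% in WT. The call of this *CG15093* bin was lost in ISCs only, with diffSplice and with diffSpliceDGE. For *nito*, 0 of 5 tested bins were called in limma, with a smallest adjusted p of 0.194 at E004, which took 33.5% in SPEN and 62.3% in WT on average.

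**Figure D5:**
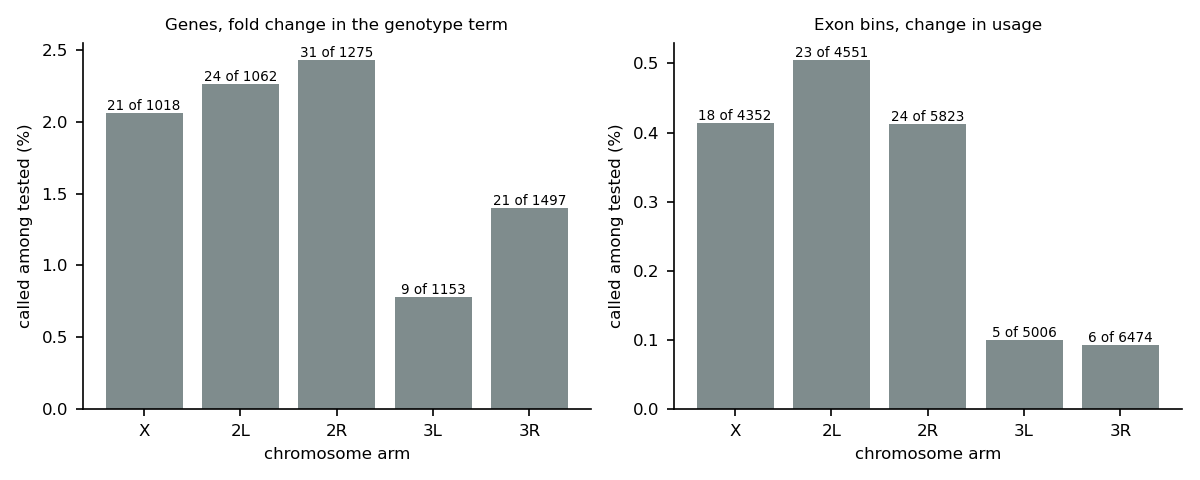
Percent of tested genes (left) and tested exon bins (right) that were called in the genotype term on each of the 5 large chromosome arms, with the counts above each bar. The bars of X, 2L and 2R stand above those of 3L and 3R in both panels.

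The share of called genes and bins was also taken by chromosome arm. Of the tested genes, 2.06% were called on X, 2.26% on 2L and 2.43% on 2R, against 0.781% on 3L and 1.4% on 3R. For exon bins the values were 0.414% on X, 0.505% on 2L and 0.412% on 2R, against 0.0999% on 3L and 0.0927% on 3R. X, 2L and 2R together held 76 of the 108 called genes (70.4%) and 65 of the 78 called bins (83.3%), from 3355 tested genes and 14726 tested bins, whereas 3L and 3R held 30 and 11, from 2650 and 11480. X, 2L and 2R held 54.9% of the tested genes and 55% of the tested bins. For genes the pattern depended on the fit, since their share of the calls was 55.5% with arrayWeights, 55.7% in EBs only and 57.9% without WT-ISC replicate 2. In the genotype given in the methods, the hairpin is on chromosome 2, opposite the driver, and *spen* itself lies on 2L. No test was made of this pattern, and RNAi and chromosome background cannot be told apart for it.

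Some called features were neighbours. Within 10 kb of each other, 12 groups held at least 2 genes with a call for level or for exon bins, covering 20 of the 108 called genes and 10 of the 53 genes with called bins. Genes are dense in this genome, with another tested gene within 10 kb of 5635 of the 6107 tested (92.3%), and whether called genes lie closer than others was not tested. In 6 of these groups at least 2 genes were called for level, 16 genes in all, and in 5 of the 6 the called genes moved in one direction. They were the 5 trypsins and the *unc-104* block on 2R, *CG43348* and *CG5011* on 2L (higher in SPEN by 1.79 and 1.56), *CG12560* and *CG34010* on 2L (lower by 1.37 and 1.63 on the log2 scale) and *CG14196* and *CG7992* on X (lower by 1.47 and 1.73). The exception was *CG2909* and *Gip*, which overlap on opposite strands. Genes that overlap or lie end to end can share reads, so these neighbours may not be separate observations.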

How the data were processed

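Sorted ISC and EB RNA was sequenced in 11 libraries. The authors aligned paired reads with TopHat2 2.0.6, keeping 1 site per read, and deposited FPKM per gene (14595 genes) and read counts per exon bin (75196 bins) on the BDGP5 annotation. The paper names oligo-dT capture, the labels also a ribosomal RNA removal kit. The authors' tables of fold changes and p-values, and 16 per-sample columns that repeat counts in them, were not used.

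The members, lists and tests were chosen with earlier results of these data known. Genes with at least 1 FPKM in at least 5 libraries were brought to one scale by a weightless TMM-type factor (30% of log ratios and 5% of levels trimmed). log2(FPKM + 0.5) was fitted with limma 3.58.1 (variance trend, robust prior; R 4.3.3) with genotype and cell type as terms, and fold changes are on this scale, which understates low genes. Exon bins with at least 10 counts, and 10 in the other bins of the gene, in at least 5 libraries were fitted as log2 ratios with an offset of 0.5 and precision weights. Benjamini-Hochberg adjusted p-values were held to 0.05 and measure the spread between these libraries. *spen* was tested by exact permutation. edgeR 4.0.16 and DESeq2 1.42.0 on exon bin counts summed per gene were alternatives, with limma's diffSplice and edgeR's diffSpliceDGE for bins, other pseudocounts, filters and scalings, and each library left out. The gene and bin tests were tested on simulated data.

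Named genes were the 12 largest called changes per direction that did not overlap in either cell type, *spen*, *nito*, *Dl*, genes named by the study, and up to 4 called members of each list; named bins were the 10 with the smallest adjusted p, *spen* E014 and bins of *nito*, *RpS21* and *RpL19*. Other genes and bins were named after their values were seen. Deviations of same-numbered libraries from their group means had correlations of -0.633 to 0.631. For SPEN-ISC with SPEN-EB they were -0.594, 0.631 and -0.123 in replicates 1, 2 and 3. With so few libraries per group, these values cannot show whether libraries are pairs. Replicate numbers were not used as pairs. No sequence is shown, because none of this genome build was used here. Figures were drawn with matplotlib 3.10.9.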

Additional observations from a re-analysis of the deposited data

Results flagged for a closer look

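In 103 groups of 5 or 6 libraries of one genotype, 3 held a library far from the others by Dixon's ratio of gap to range, where chance gives about 1 in 20 for a single normal population. The groups mix ISC and EB libraries, so that rate need not hold here. *Aats-ser* had a ratio of 0.65 in SPEN, where SPEN-ISC replicate 3 was lowest at 0.59 on the log2(scaled FPKM + 0.5) scale and the next library at 1.01. *CG2909* E001 had a ratio of 0.763 in SPEN, where SPEN-EB replicate 3 gave the bin 10.8% of the gene's counts and the next library 16.1%. *CG6073* E005 had a ratio of 0.844 in WT, where WT-ISC replicate 2 gave the bin 29.2% and the next library 24.2%. The *CG2909* value of SPEN-EB replicate 3 lay within the WT-ISC range (9.82% to 11.2%) but above both WT-EB libraries (5.74% and 4.94%), while the outlying *Aats-ser* and *CG6073* values lay on the side away from the other genotype.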

How the results depend on the processing

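The 34 genes and 17 bins followed by name kept their direction and their side of 0.05 in 1025 of 1248 repeats, lost their call in 222 and turned in 1, *CG33774* E002 (-0.332 with diffSplice). Of 182 list medians 8 moved and 1 turned, that of growth factor and JAK-STAT genes (-0.0465 with the number of detected genes as a covariate). For ISCs only and EBs only below, scaling and filter were redone within the cell type (6371 and 5974 genes tested). The 4 and 533 calls given earlier kept the pooled scaling and genes. Genes called (108) were 55 without a filter, 181 without scaling (152 higher, 29 lower), 1091 with arrayWeights (339 higher, 752 lower), 441 with DESeq2, 84 with edgeR (52 shared), 7 in ISCs only, 359 in EBs only, 71 with the detected-gene covariate (47 shared; chosen after seeing the data) and 34 to 617 with 1 library left out. Their share on X, 2L and 2R (70.4%) was 78.2% without a filter, 55.5% with arrayWeights, 61.0% with DESeq2, 85.7% in ISCs only, 55.7% in EBs only and 57.9% to 77.3% with 1 library left out. Bins called (78) were 15 with diffSplice, 9 with diffSpliceDGE, 7 in ISCs only, 23 in EBs only and 36 to 93 with 1 library left out, and their share on X, 2L and 2R (83.3%) was 100% with diffSplice, with diffSpliceDGE and in ISCs only, and 80.6% to 94.6% with 1 library left out. The *spen* E014 share differed by 61.3 points in ISCs only and 60.4 in EBs only (exact permutation, p = 0.1 each, the smallest p that either cell type alone allows), and *spen* outside E014 by 0.653 to 1.22 with 1 library left out. With the replicate number as a block, 55 genes (78.2% on X, 2L and 2R) and 49 bins were called. The deviations of same-numbered libraries cannot show whether they are pairs, and the labels do not say whether they share a sort. With genotype and number as a random sort, 162 genes were called (108 shared, within-sort correlation -0.07). The interaction stayed at 0 calls in limma in every repeat run. The causes were not tested. With 2 WT-EB libraries, small effects and low genes are beyond these data.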
